A study of Mus musculus with 2 samples.

Results

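Solute carriers are the membrane proteins of the SLC superfamily, which move amino acids, sugars, ions, metals, nucleotides and vitamins across the plasma membrane and the membranes of organelles. The genes described here were all those with a symbol made of Slc and a digit on an Affymetrix MG-U74B array, taken where a probe set (the group of oligonucleotides that measures 1 transcript) had exactly 1 annotated symbol. The urea transporter Slc14a1 and the genes on chromosome 4 between Acer2 and Svbp (2 genes) were left out by the rule. This gave 213 probe sets for 160 genes, out of 10581 probe sets with 1 symbol for 7542 genes. The choice used symbols alone and no measured value, although it was made with earlier results of these arrays known.

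Families of the superfamily are numbered, and a number often stands for a kind of substrate. In a mesenchymal progenitor such as the mesoangioblast, amino acid carriers supply growth, iron and zinc carriers set the metal content of the cytosol, and the mitochondrial carriers of family Slc25 link the cytosol with the mitochondrial matrix. Many carriers of families Slc5, Slc6, Slc12, Slc22 and Slc34 are best known from kidney, gut and brain.

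The study compared clones D16 and D351 of mesoangioblasts, vessel-associated progenitor cells that can form several mesodermal tissues. Both came from dorsal aortas of C57BL6 mice taken at embryonic day 9.5, held as an explant for 5 days and then cloned at limiting dilution in RPMI with 20% fetal calf serum. Mitomycin C-treated embryonic fibroblasts served as feeder cells in the cloning step, and the clones were later expanded on gelatin. No treatment, genotype or time point separated the groups. Each group was thus 1 clone, with total RNA on 1 array, and a difference between the clones cannot be told apart from one between any 2 cultures. No p-value or standard error was therefore computed, and differences are described by size.

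The summed signal was 653854 for D16 and 646285 for D351, and the trimmed mean was 40.0 on both arrays. Values under a floor of 16.8, the 50th percentile of both arrays together, were raised to it before the ratio was taken, and a gene was called measured when at least 1 array reached the floor. When the dimmer array was under the floor the ratio is a bound. Of the hybridisation controls BioB, BioC, BioDn and CreX, 8 of 9 were higher on the D16 array (median 1.44-fold). Of the defining mural and mesoangioblast markers listed, 2 of 15 were on the array. Cspg4 read 83.3 in D16 and 26.1 in D351, and Rgs5 was under the floor in both. Of 18 markers of embryonic fibroblasts, the feeder cell type, 6 were on the array. Their signals summed to 997 in D16 and 2450 in D351, 5 passed 2-fold towards D351, 1 (Tcf4) towards D16, and 0 were at a signal of 0. Tcf4 read 544.8 in D16 and 205.6 in D351 and was the largest part of the D16 sum. Whether the gene with this symbol marks fibroblasts was not tested. The part of these 6 genes in the differences below was not tested either. Beyond these, the endothelial list had 2 measured genes, the blood list 2 and the epithelial list 0. The endothelial genes were past 2-fold in opposite directions. Flt1 read 10.3 in D16 and 44.5 in D351, and Nrp2 54.8 and 18.7. Of the blood genes 0 were past 2-fold.

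A gene with several probe sets was represented by the measured one with the highest mean signal. Of the 160 Slc genes, 89 (55.6%) were measured, against 65.3% of all genes with 1 symbol, and 71 were under the floor on both arrays. The share measured differed between families. In family Slc25 20 of 27 genes were measured and in Slc38 6 of 7, whereas 1 of 7 genes of Slc6, the sodium-coupled carriers of neurotransmitters and amino acids, and 1 of 7 genes of Slc22, the carriers of organic cations and anions, reached the floor. Being under the floor means only that the signal was low on these arrays.

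Of the 89 measured genes, 10 (11.2%) passed 2-fold towards D351 and 6 (6.74%) towards D16. Over all 4922 measured genes these shares were 9.49% and 8.57%. In either direction the share was 18.0% of the Slc genes and 18.1% of all genes, so the superfamily as a whole stood near the background. Its median log2 ratio (D351 over D16) was -0.06, against -0.01 for all measured genes, and 43 genes lay above 0 and 46 below. Of the 16 genes past 2-fold, 6 rest on a bound. Among the 65 Slc genes that reached the floor on both arrays, 5 (7.69%) were past 2-fold towards each clone, where all such genes gave 8.12% towards D351 and 8.44% towards D16. Of the 16 genes 10 lose their call with the floor at the 75th percentile (53.5), namely Slc4a4, Slc44a1, Slc7a11, Slc38a1, Slc38a4, Slc43a2, Slc35a5, Slc35e2, Slc29a3 and Slc39a10.

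**Figure D1:**
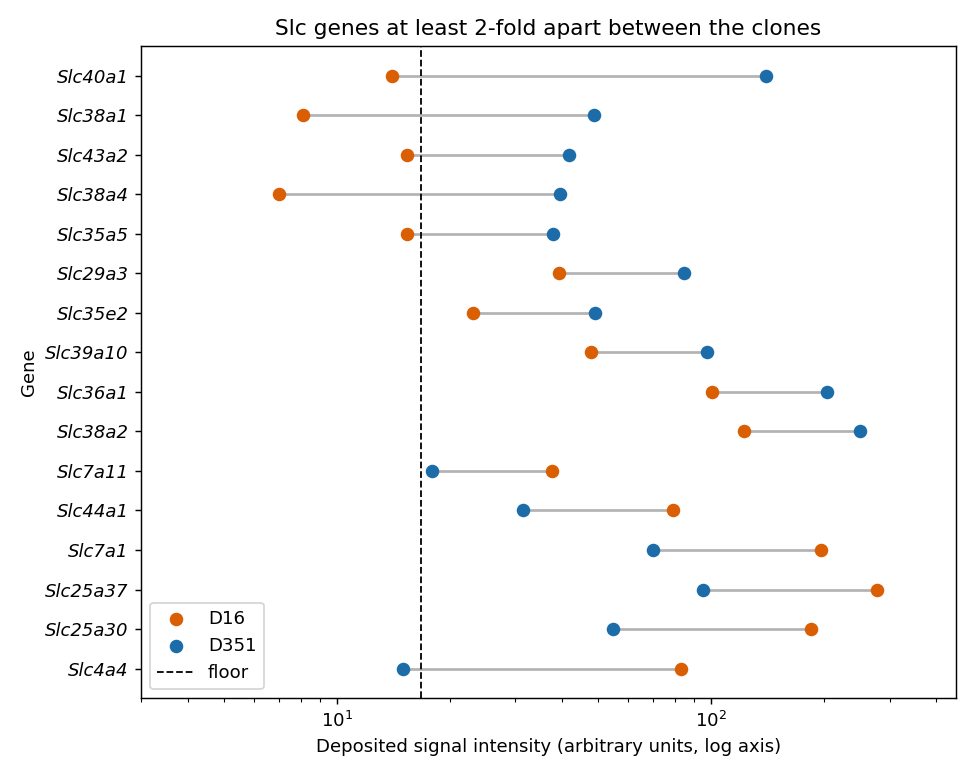
The 16 Slc genes at least 2-fold apart are plotted with their deposited signal intensity (arbitrary units, log axis) in D16 (orange) and D351 (blue), 1 array per clone, and the dashed line marks the floor of 16.8. Slc40a1 has the widest gap towards D351 (14.0 and 139.9), and Slc4a4 the widest towards D16 with D351 under the floor (83.2 and 15).

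The only replication within these arrays is that of probe sets for 1 gene, which share the RNA and the arrays. Over 1113 genes that had such a pair of measured probe sets, both ratios differed with an SD of 0.71 on the log2 scale, or 0.50 per probe set. Across the 15 Slc genes with such a pair the SD of the difference was 0.54, or 0.39 per probe set, and 13 of the 15 pairs lay on the same side of 0. A 2-fold difference (log2 of 1) is 2 times the SD per probe set over all genes. The genes just inside the 2-fold rule were Slc38a2, Slc36a1 and Slc39a10 (each 2.04-fold) and Slc7a11 (2.08-fold). Those just outside were Slc24a3 (1.97-fold), Slc38a7 (1.94-fold) and Slc7a2 (1.91-fold), so the members next to the threshold are not separated from each other by more than the probe set spread.

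**Figure D2:**
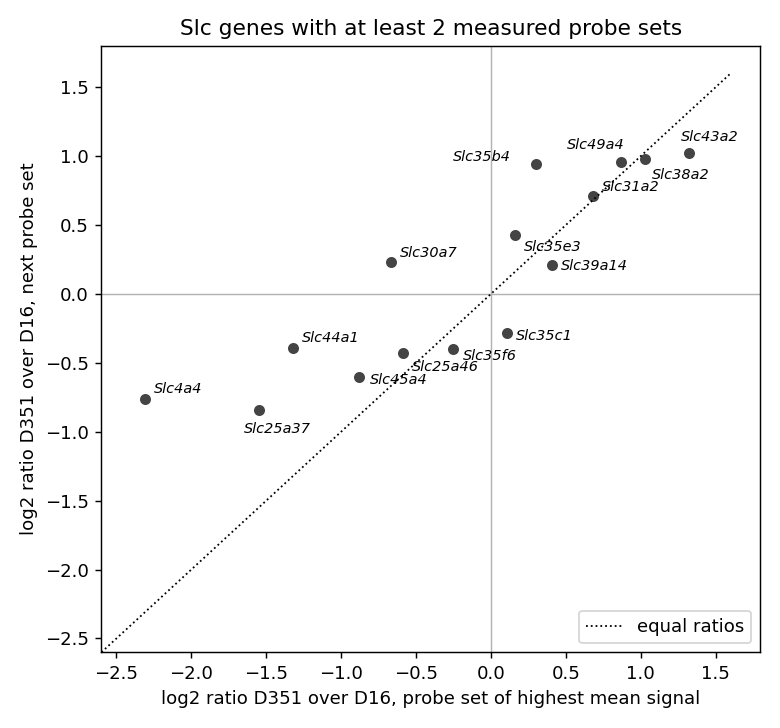
Each point is 1 of the 15 Slc genes with at least 2 measured probe sets, with the log2 ratio D351 over D16 of the probe set of highest mean signal on the x axis and that of the next on the y axis. Of the 15 genes, 13 lie on the same side of 0 on both axes, and Slc4a4 (-2.31 and -0.76, both bounds) is farthest from the line of equal ratios.

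Carriers of amino acids and peptides differed between the clones in both directions. Of 30 genes 15 were measured, 5 of them past 2-fold towards D351 and 2 towards D16, beside 9.49% and 8.57% of all measured genes. Of the 15 ratios 6 are bounds, among them those of Slc38a1, Slc38a4 and Slc43a2 past 2-fold towards D351. The group's median log2 ratio was 0.66, which kept its sign under every other scaling tried. It was 0.52 where both arrays reached the floor, and -0.18 with the floor at the 75th percentile, where the dimmer genes drop out. Without Slc38a1, Slc38a2 and Slc38a4, which lie side by side on chromosome 15, the median of the other 12 genes was 0.17. Of these 12 genes, 2 were past 2-fold towards each clone. This split was made after the values were seen.

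Promoter sequence is shown for 4 of these genes, a pair from each side. They are the amino acid carriers past 2-fold whose promoter sequence held a match to a motif given below. The 250 bases before the annotated start are from RefSeq (GRCm38.p6), 5′ to 3′ on the strand of the gene, and 12 of the 16 genes past 2-fold had an entry. Capitals mark matches on either strand to 3 motifs. These were the C/EBP-ATF response element TGATGNAA, which ATF4 binds when amino acids are short, the antioxidant response element TGACNNNGC and the E-box CACGTG. Of the other amino acid carriers past 2-fold, Slc38a4 and Slc43a2 had an entry without a match, and Slc38a1 had no entry.
Slc38a2, chr15:96699729-96699978, minus strand: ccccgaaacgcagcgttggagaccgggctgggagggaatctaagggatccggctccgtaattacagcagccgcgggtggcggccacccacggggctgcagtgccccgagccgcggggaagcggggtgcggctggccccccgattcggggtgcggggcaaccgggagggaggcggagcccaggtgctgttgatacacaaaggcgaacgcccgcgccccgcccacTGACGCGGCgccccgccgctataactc
Slc36a1, chr11:55204090-55204339, plus strand: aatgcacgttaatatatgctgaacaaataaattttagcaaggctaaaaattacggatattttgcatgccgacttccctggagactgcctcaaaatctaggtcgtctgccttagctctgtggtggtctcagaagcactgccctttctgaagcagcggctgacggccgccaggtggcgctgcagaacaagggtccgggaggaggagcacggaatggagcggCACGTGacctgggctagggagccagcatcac
Slc7a11, chr3:50443614-50443863, minus strand: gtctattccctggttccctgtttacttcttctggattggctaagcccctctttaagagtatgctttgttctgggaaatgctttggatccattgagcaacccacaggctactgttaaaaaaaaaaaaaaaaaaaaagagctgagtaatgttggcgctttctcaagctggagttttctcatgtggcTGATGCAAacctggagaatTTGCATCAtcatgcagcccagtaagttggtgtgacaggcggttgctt
Slc7a1, chr5:148399905-148400154, minus strand, the more upstream of 2 starts: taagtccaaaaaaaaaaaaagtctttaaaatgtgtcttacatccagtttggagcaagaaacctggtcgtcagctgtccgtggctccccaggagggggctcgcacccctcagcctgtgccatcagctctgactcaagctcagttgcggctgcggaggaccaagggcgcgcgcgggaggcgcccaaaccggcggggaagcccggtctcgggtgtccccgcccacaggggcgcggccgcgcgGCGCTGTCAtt
The Slc7a11 window held TGATGNAA 2 times, beginning 66 and 47 bases before the start, in opposite orientations. Of all 32851 RefSeq windows of this length 3.45% held that motif, as did 1.85% of the 162 Slc windows. Of the 12 genes past 2-fold with an entry (19 windows) Slc7a11 alone did. Sequence outside the windows was not searched, so a gene without a match may hold the motif elsewhere. Slc38a2 and Slc7a1, which differed in opposite directions, each held 1 match to TGACNNNGC (10.2% of all windows and 13.6% of the Slc windows). Slc36a1 held 1 E-box, as did 6.02% of all windows, and Slc35a5 was the other gene past 2-fold with one. These matches describe the letters and are no evidence of binding.

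Family Slc38 holds the sodium-coupled neutral amino acid transporters. Slc38a2, a system A carrier of glutamine and alanine, read 122.4 in D16 and 249.3 in D351, a 2.04-fold difference. Its other probe set read 61.8 and 122.3 (log2 0.98, against 1.03 for the first). Both probe sets thus gave nearly the same ratio.

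Slc38a1, another system A carrier, read 8.1 in D16 and 48.7 in D351 (at least 2.90-fold). Slc38a4, a system A carrier best known from liver and placenta that also takes cationic amino acids, read 7.0 and 39.4 (at least 2.35-fold). D16 was under the floor for both. Slc38a7, a lysosomal glutamine exporter, read 24.9 and 48.4 (log2 0.96), and Slc38a9, the lysosomal arginine sensor of the mTORC1 pathway, read 14.7 and 26.6 (log2 at least 0.66). Slc38a6 was the member of the family below 0, with 67.2 and 59.4 (log2 -0.18), and Slc38a3 was under the floor. In all, 5 of the 6 measured Slc38 genes lay above 0 and 3 were past 2-fold towards D351 (9.49% of all measured genes), in a family singled out after its values were seen.

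These 3 genes, Slc38a1, Slc38a2 and Slc38a4, follow one another on chromosome 15 with no other protein-coding gene between them in GRCm38.p6. The measured genes beside the run did not share its direction. Scaf11, before Slc38a1, had a log2 ratio of -0.46, and Amigo2, after Slc38a4, had -1.46 (76.1 in D16 and 27.6 in D351). The median of 214 measured genes on chromosome 15 was -0.05.

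**Figure D3:**
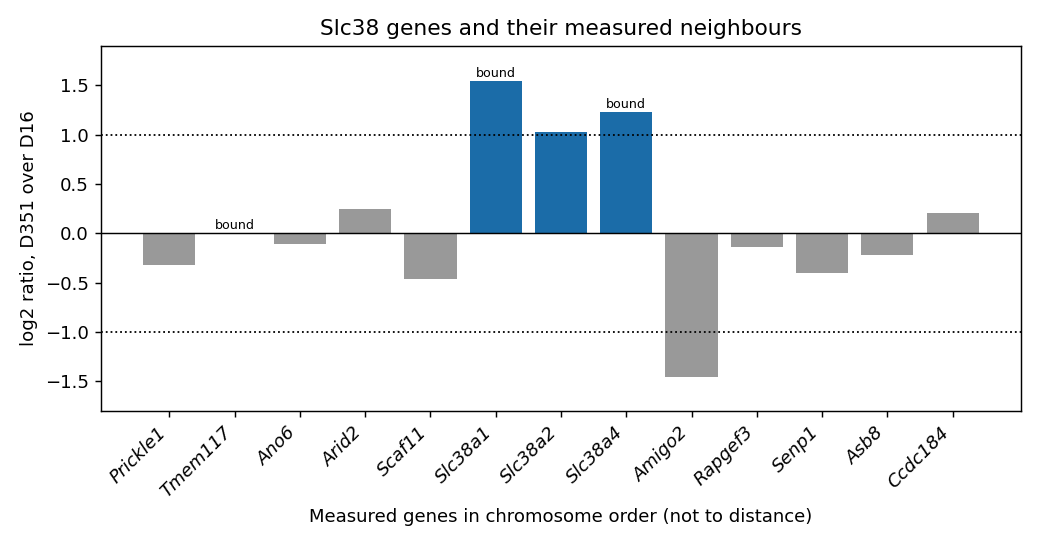
Bars give the log2 ratio D351 over D16 (1 array per clone) for the Slc38 run (blue) and the 5 measured genes on each side (grey), in chromosome order and not to distance, with dotted lines at 2-fold and bounds marked. Slc38a1, Slc38a2 and Slc38a4 are above 1, and Scaf11 and Amigo2 next to them are below 0.

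Outside family Slc38, Slc36a1, a proton-coupled carrier of small amino acids in lysosomes and the plasma membrane, read 100.4 in D16 and 204.7 in D351 (2.04-fold). Slc36a4, of the same family, read 29.5 and 42.2 (log2 0.52), and Slc36a2, next to Slc36a1 on chromosome 11, was under the floor. Slc43a2, which carries large neutral amino acids by facilitated diffusion, read 15.4 and 41.8 (at least 2.49-fold). A further Slc43a2 probe set read 14.6 and 34.0 (log2 at least 1.02), while 2 others were under the floor on both arrays. Its call thus rests on 2 of 4 probe sets.

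The carriers past 2-fold towards D16 belong to family Slc7. Slc7a1, the constitutive transporter of arginine and lysine (CAT-1), read 196.5 in D16 and 70.1 in D351, a 2.80-fold difference. Slc7a2, another cationic amino acid transporter, went the other way with 17.9 and 34.2 (log2 0.93), just under 2-fold. Slc7a11, the cystine-glutamate exchanger xCT, read 37.5 and 18.0 (2.08-fold higher in D16), with D351 close to the floor. The cationic amino acid carriers thus lay on opposite sides. Slc1a3, a glutamate transporter, read 30.8 and 4.6 (log2 at most -0.87), and its other probe set, 8.3 and 1.1, was under the floor on both arrays. Slc15a4, a lysosomal carrier of histidine and peptides, read 63.8 and 52.9, and the GABA transporter Slc6a11 read 22.3 and 5.2 (log2 at most -0.41).

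**Figure D4:**
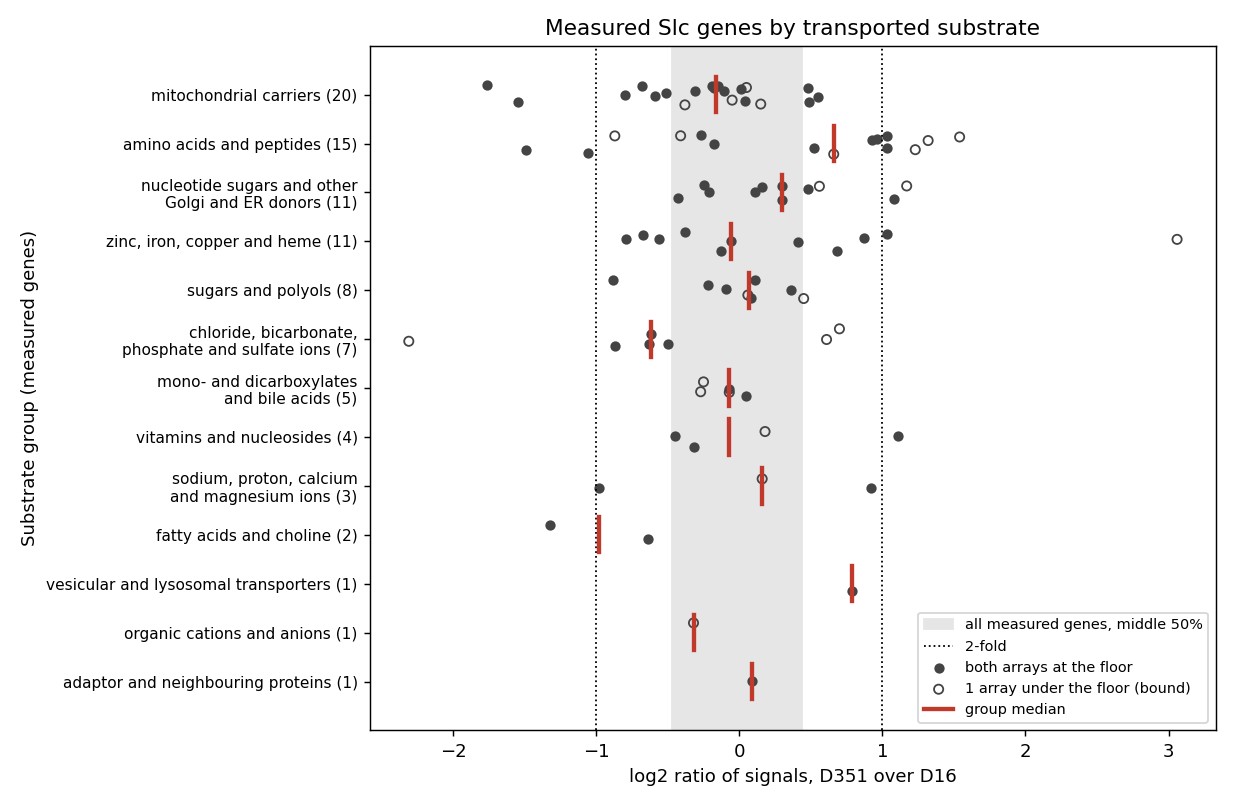
Each point is 1 measured Slc gene with its log2 ratio D351 over D16 (x axis) in its substrate group (y axis, number of measured genes), open where 1 array was under the floor, with red bars at group medians, dotted lines at 2-fold and grey over the middle 50% of all measured genes (-0.47 to 0.44). The amino acid group has genes past 2-fold on both sides. Of 20 mitochondrial carriers 2 are past 2-fold towards D16 and 0 towards D351 (all measured genes 8.57% and 9.49%).

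Slc40a1 encodes ferroportin, the iron exporter of the plasma membrane, and read 14.0 in D16 and 139.9 in D351, at least 8.33-fold higher in D351. The bound depends on the floor, and with the floor at the 75th percentile the log2 ratio was at least 1.39 in place of at least 3.06. As a bound, 1.39 cannot be ranked against the log2 ratios of Slc25a30 (-1.76), Slc25a37 (-1.55) and Slc7a1 (-1.49). The value of Slc40a1 rests on 1 probe set. Slc39a10, a zinc importer, is the next measured gene on chromosome 1 and read 47.8 and 97.7 (2.04-fold), with another probe set under the floor. Next to this pair, Wdr75 had a log2 ratio of 0.20 and Osgepl1 of -0.85. Col5a2, one of the fibroblast markers above, lies beyond Wdr75 and had at least 1.84.

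Of 14 genes for zinc, iron, copper and heme 11 were measured, with a median log2 ratio of -0.06 (0.07 and 0.06 with the floor at the 25th and 75th percentiles). Slc40a1 and Slc39a10 were the 2 past 2-fold, both towards D351, beside 9.49% of all measured genes. The zinc exporters of family Slc30 had 3 measured genes, all below 0 (50.7% of all measured genes) and none past 2-fold (18.1% in either direction). Slc30a1, the exporter of the plasma membrane, read 33.6 in D16 and 19.4 in D351 (log2 -0.79). The Golgi and vesicle carriers Slc30a6 (116.2 and 78.7) and Slc30a7 (106.3 and 66.8) had -0.56 and -0.67, but another Slc30a7 probe set had 0.23. Zinc importers of family Slc39 went both ways, with Slc39a14 (79.6 and 105.5), which also takes up iron, at 0.41, Slc39a13 of the Golgi (148.4 and 142.6) at -0.06, and Slc39a11 at -0.38. Slc31a2, a copper carrier, read 37.7 and 60.4 (log2 0.68, with 0.71 on another probe set). Slc49a4, placed here by its family number, read 83.1 and 151.8 (log2 0.87, with 0.96 on another probe set).

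Among other genes of iron entry, the transferrin receptor Tfrc read 92.0 in D16 and 37.0 in D351 (2.49-fold higher in D16). Slc25a37, mitoferrin-1, which brings iron into mitochondria, read 278.4 in D16 and 94.9 in D351, a 2.93-fold difference. Its other probe set read 37.7 and 21.0 (log2 -0.84). Slc39a14, given above, which also takes up iron, lay towards D351 (log2 0.41, with at least 0.21 on another probe set). A further Slc39a14 probe set, under the floor on both arrays, read 16.6 in D16 and 6.6 in D351. These genes of iron handling were picked after their values were seen and went both ways.

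Among 20 measured mitochondrial carriers of family Slc25, 2 were past 2-fold towards D16 and 0 towards D351 (all measured genes 8.57% and 9.49%). Their median log2 ratio was -0.16, with 13 genes below 0 and 7 above, and at 1.5-fold there were 5 towards D16 and 0 towards D351, where all measured genes gave 20.4% and 19.3%. With 20 genes these counts towards D16 are near the background. Beside Slc25a37, Slc25a30, an inner membrane carrier related to the uncoupling proteins, read 185.1 in D16 and 54.8 in D351 (3.38-fold). The other 3 past 1.5-fold were Slc25a33, a pyrimidine nucleotide carrier (77.7 and 44.5), Slc25a12, the aspartate-glutamate carrier (80.8 and 50.4), and Slc25a46, an outer membrane protein of mitochondrial dynamics (195.1 and 129.4). Slc25a46 had log2 ratios of -0.59, -0.43 and 0.32 on its 3 probe sets. The ADP/ATP carrier Slc25a4 read 912.3 and 936.7 (log2 0.04), on a probe set with the ending _f, which marks a design shared with related transcripts, so that other ADP/ATP carriers may contribute. The phosphate carrier Slc25a3 read 39.4 and 39.6. The highest ratios of the family were those of Slc25a27 (log2 0.55), the ATP-Mg/phosphate carrier Slc25a25 (0.49) and the NAD carrier Slc25a51 (0.48).

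Carriers of chloride, bicarbonate, phosphate and sulfate had 7 measured genes of 16, with a median log2 ratio of -0.62, and 3 of the 7 ratios are bounds. Towards D16 1 gene was past 2-fold and towards D351 0, beside 8.57% and 9.49% of all measured genes. The gene past 2-fold was Slc4a4, the electrogenic sodium-bicarbonate cotransporter that sets cell pH. Slc4a4 read 83.2 in D16 and 15 in D351 (at least 4.95-fold). Its other probe sets read 28.5 and 10.7 (log2 at most -0.76, ending _s) and 10.1 and 5.6, the last under the floor on both arrays, so D16 was the higher array on all 3. Slc20a2, a phosphate importer of most cells, read 376.2 and 206.1 (log2 -0.87). The anion exchangers Slc26a6 (7.8 and 25.7) and Slc26a11 (15 and 27.3) were higher in D351, with log2 ratios of at least 0.61 and 0.70.

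Some carriers of this and the sugar group best known from kidney also gave signals. Slc12a3, the thiazide-sensitive sodium-chloride cotransporter, read 51.0 in D16 and 33.1 in D351, and the phosphate carrier Slc34a3 read 75.4 and 53.4. Slc5a2, the sodium-glucose cotransporter of the proximal tubule, read 87.5 and 74.9, but its 2 other probe sets were under the floor on both arrays. Slc17a3 read 67.3 and 43.6 on an _f probe set and 1.5 and 1.3 on a plain one. Where the probe sets of a gene disagree about its presence, as for Slc5a2 and Slc17a3, the ratio rests on 1 of them.

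Nucleotide sugar carriers and other carriers of the Golgi and endoplasmic reticulum had 11 measured genes of 17 and a median log2 ratio of 0.30. The median was 0.16 where both arrays reached the floor and 0.11 with the floor at the 75th percentile. Of the 11 genes 8 lay above 0, beside 48.8% of all measured genes. The 2 past 2-fold were both higher in D351, beside 9.49% of all measured genes. Slc35a5, a Golgi member of the nucleotide sugar family, read 15.4 in D16 and 37.7 in D351 (at least 2.24-fold). Slc35e2, a member whose substrate is unsettled, read 23.1 and 48.9 (2.12-fold), with another probe set under the floor. Slc35f5 read 132.7 and 185.5 (log2 0.48) and Slc37a3 144.6 and 177.9 (0.30). Slc35a3, the UDP-N-acetylglucosamine carrier, was the lowest of the group, with 79.3 and 59.0 (-0.43). Slc35b4, a carrier of UDP-xylose, had log2 ratios from 0.20 to 0.94 on its 4 probe sets. The GDP-fucose carrier Slc35c1 had 0.11 and -0.28.

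Lipid carriers were few. Slc44a1, a choline transporter, read 78.9 in D16 and 31.5 in D351 (2.50-fold higher in D16), but its other probe set read 45.3 and 34.5 (log2 -0.39), so that their median was under 2-fold. It lies on chromosome 4 outside the stretch that was left out. The median of 295 measured genes on that chromosome, those of the stretch included, was -0.34. The 6 measured Slc genes described here that lie on it had a median of 0.30. Slc27a1, a fatty acid transport protein, read 122.6 and 78.8 (log2 -0.64).

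Vitamin and nucleoside carriers had 4 measured genes of 6. Slc29a3, the nucleoside transporter of lysosomes and mitochondria, read 39.2 in D16 and 84.6 in D351 (2.16-fold). The biotin and pantothenate carrier Slc5a6 read 56.2 and 45.1, and the riboflavin carrier Slc52a3 41.7 and 30.6. Slc29a3 was thus the one past 2-fold here, beside 9.49% of all measured genes towards D351.

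Sugar and polyol carriers had 0 of 8 measured genes past 2-fold, beside 18.1% of all measured genes in either direction. Their median log2 ratio was 0.07 (-0.09 with the floor at the 25th percentile). Slc2a10, of the facilitative glucose transporter family, read 107.1 in D16 and 137.9 in D351 (log2 0.36), and Slc2a13, a proton-coupled inositol carrier, 4.1 and 23.0 (at least 0.45). Slc45a4 read 83.7 and 45.4 and was higher in D16 on all 3 probe sets (log2 -0.88, -0.60 and -0.72). Mono- and dicarboxylate carriers had 0 of 5 past 2-fold (18.1% of all measured genes) and ratios from -0.27 to 0.05. Slc16a3, the lactate exporter MCT4, read 17.6 and 16.8, at the floor, and Slc10a7 read 98.1 and 101.6.

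Cation carriers had 3 measured genes of 6 and 0 past 2-fold, beside 18.1% of all measured genes in either direction. Slc24a3, a potassium-dependent sodium-calcium exchanger, read 51.8 in D16 and 26.3 in D351 (log2 -0.98), and Slc41a3, of the magnesium carrier family, read 23.2 and 43.9 (0.92). The mitochondrial sodium-calcium exchanger Slc8b1 read 11.6 and 18.8. Sialin (Slc17a5), the lysosomal sialic acid exporter, was the 1 measured gene of the vesicular and lysosomal group, with 44.5 and 76.7 (log2 0.79). Slc22a13 was the 1 measured gene of 8 carriers of organic cations and anions (20.9 and 15.6), and Slc7a6os, which is no carrier but a neighbour of Slc7a6, read 26.8 and 28.5.

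Pumps, channels and carriers outside the SLC symbols served as a comparison. Of 77 such genes 38 were measured, with a median log2 ratio of -0.10. Past 2-fold were 4 (10.5%) towards D351 and 5 (13.2%) towards D16, beside 9.49% and 8.57% of all measured genes. Those towards D351 were the plasma membrane calcium pump Atp2b4 (26.3 in D16 and 82.3 in D351, 3.13-fold), the mitochondrial calcium uniporter Mcu (16.2 and 51.0, at least 3.04-fold), the prostaglandin transporter Slco2a1 (at least 2.72-fold) and Mfsd4b4 (at least 2.07-fold). Those towards D16 were Tfrc, Mfsd9 (2.42-fold), Abca8b (at least 2.30-fold), Abca9 (2.28-fold) and Mfsd4b5 (2.13-fold). ATP-binding cassette transporters had 0 of 9 past 2-fold towards D351 and 2 towards D16. With 9 genes these counts are near the shares of all measured genes (9.49% and 8.57%).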

How the data were processed

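Expression was measured on 2 MG-U74B arrays, 1 for each clone. The deposited table holds a linear intensity for every probe set and array. How the authors computed and background-corrected it is not given in the sources used here, and no presence calls were used. Both columns had a trimmed mean of 40.0 (2% off each end), as after scaling to a common target, and were used as deposited, so a shift of the whole transcriptome could not be seen. Of 12477 probe sets 66 were controls and were left out. Names came from GEO's platform annotation, and all 213 Slc probe sets matched RefSeq (GRCm38.p6) by gene identifier. Another 4 probe sets with Slc symbols named several genes and were not used.

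Substrate groups follow the number of the SLC family, with single exceptions. The text names every Slc gene past 2-fold, the 2 genes of highest mean signal in each group, and genes whose probe sets lay past 1.5-fold in opposite directions (0 genes). Other genes illustrate a group and were chosen after their values were seen. The members and lists were chosen with earlier results of these data known. Group medians take bounds at their bound. Other settings were quantile normalization, a common median, loess (span 0.3), a floor at the 25th or 75th percentile, the floor on both arrays, rules of 1.5-fold and 3-fold, the median over probe sets, and plain probe sets. The calculation was run on simulated data with large changes in bright probe sets and little noise. That run does not bear on ratios near 2-fold or near the floor. Python 3.11.15, numpy 2.4.6, pandas 2.3.3 and statsmodels 0.14.6 were used. The number of arrays limits the precision.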

Additional observations from a re-analysis of the deposited data

How the results depend on the processing

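No paired analysis was possible because each clone had 1 array. The counts of Slc genes past 2-fold (10 towards D351 and 6 towards D16) stayed within 1.5 times under the common median, quantile normalization, the loess correction, the median over probe sets, plain probe sets and a minimum difference equal to the floor, and under the 3 scalings and plain probe sets all 16 genes kept their call. The floor mattered more. With it at the 25th percentile (4.6) the counts were 18 and 14 of 125 measured genes (all genes 11.9% and 11.5%), and at the 75th percentile (53.5) 3 and 3 of 44 (all genes 7.12% and 6.34%), with a median log2 ratio of -0.17 in place of -0.06. There 6 of the 16 genes kept their call, and 10 did when both arrays had to reach the floor, with 5 towards D351. The other transporters gave 9 and 9 with the lower floor and 0 and 0 with the higher one, in place of 4 and 5. A 1.5-fold rule gave 19 and 18 (21.3% and 20.2%, against 19.3% and 20.4% of all genes), and a 3-fold rule 1 and 2 (1.12% and 2.25%, against 3.60% and 2.78%). Slc25a30, Slc25a37, Slc36a1, Slc38a2 and Slc7a1 kept their call under all of these except the 3-fold rule, which Slc25a30 alone of them passed. No named gene past 2-fold changed sign. Group medians moved by under 0.1 in 41 of 51 planned comparisons. Signals near the floor limit the precision of the 24 ratios that are bounds.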

Other observations

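Carriers of the lysosome and late endosome stand in several substrate groups and were put together after their values were seen, so they carry no test. The list may leave out other carriers of these compartments. Of its 11 Slc genes 10 were measured, 9 of them higher in D351, as were 48.8% of all measured genes (median log2 ratio 0.73 against -0.01). At 1.5-fold 7 were higher in D351, against 19.3% of all measured genes. These were Slc29a3 (1.11), Slc36a1 (1.03), Slc38a7 (0.96), Slc49a4 (0.87), Slc17a5 (0.79), Slc31a2 (0.68) and Slc38a9 (at least 0.66). Slc37a3 (0.30) and Slc46a3 (at least 0.18) were above 0, Slc15a4 (-0.27) was below, and Slc66a1 was under the floor. Of the V-type proton pump, which acidifies lysosomes, 3 genes were measured, with a median log2 ratio of 0.36 and 0 past 2-fold (18.1% of all measured genes).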
